A study of Mus musculus with 9 samples.

Results

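The 10 genes described here encode the kinase mTOR, partners it shares between or keeps to its complexes, and proteins that sit directly above it. They were picked by symbol from a table of RNA-seq gene counts, namely Mtor, Rptor, Rictor, Mlst8, Rheb, Tsc1, Tsc2, Depdc5, Rasd1 and Rasd2, the last of which encodes Rhes. All 10 were present among the 36410 genes listed. A filter on low counts kept 9 of the 10, every one except Rasd2, within a total of 13508 genes that were compared between the cell lines.

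The counts come from 3 immortalized mouse striatal cell lines, each with 3 libraries, and ask how the mRNAs of a line change with the length of the glutamine repeat in huntingtin. Control cells (STHdhQ7/Q7) have 7 glutamines on both huntingtin alleles, HD-het cells (STHdhQ7/Q111) have 7 on 1 allele and 111 on the other, and HD-homo cells (STHdhQ111/Q111) have 111 on both. According to the labels every line expresses a knock-in Htt exon 1, the control line included, and all come from the strain C57/BL6, with no treatment given. With 1 line per genotype, effects of genotype and of line cannot be told apart. No source says that the 3 libraries of a line were separate cultures, so the p-values measure the spread between these libraries, which may be technical.

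mTOR is a protein kinase that works in a pair of complexes. In mTORC1 it is joined by Raptor and promotes protein synthesis and restrains autophagy, and in mTORC2 it is joined by Rictor and phosphorylates AKT. Growth factors reach mTORC1 through the tuberous sclerosis complex, which holds the small GTPase RHEB inactive, while amino acids reach it through the RAG GTPases, on which the GATOR1 complex acts as a brake. Rhes is a small GTPase enriched in the striatum that has been linked both to mTOR activation and to Huntington disease. The mRNA of a regulator is not a measure of the kinase's activity, which these libraries do not contain.

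Library totals ran from 29507665 to 41197931 reads on genes, and a count of 3, the smallest taken to show a gene, equals between 0.0710 and 0.101 normalized counts per megaread (CPM) here; this floor covers counting error only. The mRNA of Htt itself was 99.97 ± 6.00 CPM (SD, n = 3) in control, 62.3 ± 1.51 in HD-het and 20.2 ± 1.29 in HD-homo cells, with no overlap between the lines, which orders the libraries by label but says nothing of repeat length. Of 11 markers of mature striatal projection neurons, 9 lay below 1 CPM in control cells, 9 in HD-homo and 10 in HD-het cells, Drd1 was at 0 in every line, Drd2 was at 0 in control and HD-homo cells, and the sum of the 11 was between 4.26 and 7.99 CPM. The highest of them were Pde10a, at 2.07 CPM in control, 5.02 in HD-het and 1.56 in HD-homo cells, and Penk, at 1.28, 0.470 and 2.42 CPM. Of 6 general neuron markers, 4 lay below 1 CPM in each line. Map2 and Tubb3 carried the sum of the 6, between 88.75 and 113.9 CPM over all libraries. Mesenchymal markers summed to between 10120 and 11140 CPM in control and HD-homo libraries and to between 18370 and 20120 CPM in HD-het libraries. These sums hide members that moved in opposite directions, since in HD-homo cells Acta2 was at 91.8 CPM against 2271 CPM in control cells while Col1a2 was at 1494 against 73.4 CPM and Pdgfra at 307 against 5.21 CPM. The summed neural progenitor markers were between 660.9 and 702.1 CPM in control, between 949.6 and 989.5 CPM in HD-het and between 27.3 and 40.3 CPM in HD-homo libraries. Nes carried the higher sum in HD-het cells, at 839.5 CPM against 526 CPM in control cells, whereas Sox2 was lower there, at 82.9 against 128 CPM. The part of these differences in the results below was not tested, and in bulk RNA fewer cells of a type and less RNA per cell cannot be told apart. The variance between 2 libraries of a line, in multiples of that of counting alone, was between 2.23 and 11.8 in control, between 6.44 and 21.4 in HD-het and between 22.7 and 40.3 in HD-homo cells, where both pairs with replicate 2 (27.5 and 40.3) exceeded the pair without it (22.7).

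Of the 9 tested genes, 6 differed from control cells in HD-het, 4 differed from control cells in HD-homo, and 3 differed when the HD lines were set against each other, or 5 without HD-homo replicate 1. These counts lay close to or below the share of all tested genes that differed. Against control cells, Rheb and Tsc1 were higher and Mlst8, Rptor, Rictor and Tsc2 lower in HD-het cells, with a threshold of 0.05 on the p that edgeR's quasi-likelihood test gave after Benjamini-Hochberg adjustment over all 13508 genes. By the same test 65.1% of all genes differed, 33.8% being higher and 31.4% lower in HD-het cells. In HD-homo cells Tsc1 was higher and Mlst8, Rptor and Tsc2 were lower than in control cells, where 58.6% of all genes differed, 29.6% higher and 28.9% lower. Between the HD lines Mlst8 and Rictor were higher and Rheb was lower in HD-homo cells, against 71.6% of all genes, 36.0% higher and 35.6% lower. Both comparisons with control cells share the same 3 control libraries.

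The members moved little in size. The median absolute log2 fold change of the 9 tested members was 0.32 in HD-het against control cells, 0.24 in HD-homo against control cells and 0.17 between the HD lines. Over all tested genes the same medians were 0.40, 0.32 and 0.46. The median signed change of the members was -0.25 in HD-het against control cells, beside 0.03 over all genes, while in HD-homo cells it was -0.00 beside 0.01 and between the HD lines it was 0.07 beside 0.00.

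**Figure D1:**
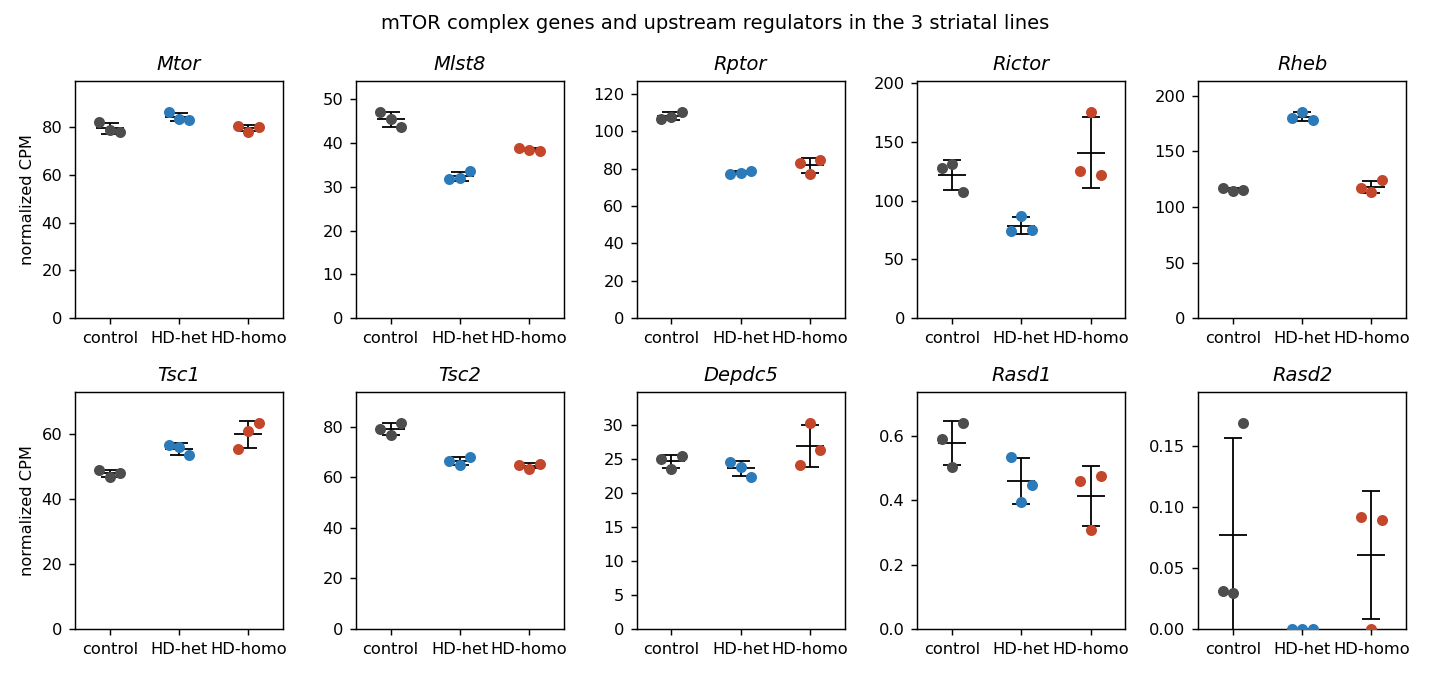
Normalized CPM (vertical axis, from 0) of the 10 genes in each of the 9 libraries, by line. Points are libraries, the horizontal bar is the mean and the whiskers are the SD (n = 3). Rheb stands highest in HD-het cells, Rptor, Mlst8 and Tsc2 are highest in control cells, HD-homo replicate 2 is the upper point for Rictor at 175 CPM, and Rasd2 is at 0 in all HD-het libraries.

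To compare genes with one another, levels were divided by the length of their merged exons. This length joins the exons of all annotated transcripts, 4.435 kilobases for Mlst8, and can exceed that of the mRNA present. The order between genes therefore depends on the annotation. On this scale of CPM per kilobase, Rheb was the most abundant of the 10 in every line, at 14.99 ± 0.203 (SD, n = 3) in control, 23.5 ± 0.479 in HD-het and 15.3 ± 0.724 in HD-homo cells. In control cells Mlst8 followed at 10.2, and Tsc2, Rptor, Mtor and Rictor came next between 8.23 and 7.19, each overlapping its neighbour in the order. Tsc1 at 4.04 and Depdc5 at 2.10 were lower without overlap. Rasd1 reached 0.360 CPM per kilobase and Rasd2 0.0241, the lowest levels in all 3 lines. In HD-het cells Mtor was second at 8.34, ahead of Mlst8 at 7.31, Tsc2 at 6.90 and Rptor at 5.78, and Tsc1 and Rictor overlapped at 4.67 and 4.64. In HD-homo cells Mlst8, Rictor and Mtor came after Rheb, between 8.68 and 7.87, with overlap between neighbours.

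Mtor, the kinase shared by both complexes, lies on chromosome 4 of GRCm38 from 148448611 to 148557683. Control libraries held 82.2, 78.6 and 78.0 CPM of it, HD-het libraries 86.3, 83.5 and 83.0, and HD-homo libraries 80.6, 78.1 and 79.8. The HD-het libraries all lay slightly above the others, and control and HD-homo libraries overlapped. None of the 3 differences passed the test. The log2 fold change was 0.08 in HD-het against control cells (95% interval -0.03 to 0.19, adjusted p = 0.173, edgeR quasi-likelihood, Benjamini-Hochberg), -0.00 in HD-homo against control cells (-0.11 to 0.11, adjusted p = 0.978) and -0.08 between the HD lines (-0.19 to 0.03, adjusted p = 0.156). Each interval ended short of 0.20 in either direction on the log2 scale, but it covers only the spread between these libraries.

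Mlst8, a small beta-propeller subunit that binds the mTOR kinase domain in both complexes, lies on the minus strand of chromosome 17 from 24473551 to 24479078. Control libraries held 47.1, 45.5 and 43.7 CPM of it, HD-het libraries 31.7, 31.9 and 33.6, and HD-homo libraries 38.8, 38.4 and 38.3. The 3 lines formed separate groups, with HD-het lowest and HD-homo between. The mRNA of Mlst8 in HD-het cells was 0.714 times that in control cells, or -0.49 ± 0.0586 (SE), adjusted p = 2.54e-05 (edgeR quasi-likelihood, Benjamini-Hochberg). In HD-homo cells it was 0.848 times the control level, at -0.24 ± 0.0582 (adjusted p = 0.00447 by the same test), and HD-homo cells had 1.19 times the level of HD-het cells, at 0.25 ± 0.0586 (adjusted p = 0.00269). The gene overlaps Bricd5 on the opposite strand over 1586 bases, a gene with at most 4 reads in any library.

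Rptor encodes Raptor, the scaffold that brings substrates to mTORC1, and lies on chromosome 11 from 119602905 to 119899576. Its levels were 107, 107 and 110.3 CPM in control libraries, 77.3, 77.4 and 78.9 in HD-het libraries and 83.3, 77.1 and 84.8 in HD-homo libraries. Every HD library lay below every control library, while the HD lines overlapped each other. Rptor fell by 0.47 on the log2 scale in HD-het cells (SE 0.0537, adjusted p = 1.61e-05, edgeR quasi-likelihood, Benjamini-Hochberg) and by 0.40 in HD-homo cells (SE 0.0536, adjusted p = 6.29e-05), to 0.720 and 0.756 times the control level. The HD lines were separated by 0.07 (95% interval -0.05 to 0.19, adjusted p = 0.268). No read was counted on Rptoros, the antisense gene within Rptor.

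Rictor, the defining subunit of mTORC2, lies on chromosome 15 from 6708379 to 6800401. Control libraries held 128, 131 and 107 CPM, HD-het libraries 74.3, 86.7 and 74.5, and HD-homo libraries 125, 175 and 121. The HD-het libraries lay below all the others, control and HD-homo libraries overlapped, and HD-homo replicate 2 was 42.2% above the mean of the other HD-homo libraries. Rictor was the most variable of the more abundant members, with a coefficient of variation of 21.4% in HD-homo and 10.7% in control cells. In HD-het cells it was 0.645 times the control level, a log2 fold change of -0.63 ± 0.135 (SE, adjusted p = 0.00161, edgeR quasi-likelihood, Benjamini-Hochberg). HD-homo cells had 1.79 times the level of HD-het cells, at 0.84 ± 0.135 (adjusted p = 0.000171), or 0.65 without HD-homo replicate 2 (adjusted p = 9.25e-05). Between HD-homo and control cells the log2 fold change was 0.21 (95% interval -0.09 to 0.50, adjusted p = 0.203), and without HD-homo replicate 2 it was 0.02 (adjusted p = 0.886).

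The balance between the Raptor and Rictor mRNAs was lowest in HD-homo cells. The log2 ratio of Rptor to Rictor CPM was -0.26, -0.28 and 0.05 in control libraries, 0.06, -0.16 and 0.08 in HD-het libraries and -0.59, -1.19 and -0.52 in HD-homo libraries. All HD-homo libraries lay below all others, while control and HD-het libraries overlapped. HD-homo minus control cells, the means differed by -0.60 on the log2 scale (p = 0.1 in a two-sided exact permutation test, the smallest p possible with 3 libraries a side). Without HD-homo replicate 2 this difference was -0.39, and without control replicate 3 it was -0.49 (exact permutation p = 0.2). HD-homo cells were also below HD-het cells, at -0.76 (p = 0.1 in the same exact test), and the HD-het and control cells differed by 0.16 (p = 0.2). In the HD-het line Rptor and Rictor were both lower than in control cells, and their ratio stayed within the control range in 1 library and just above it in the others. The ratio of Mtor to Mlst8 was ordered without overlap, control below HD-homo below HD-het cells, with means of 0.81 ± 0.0234 (SD, n = 3), 1.05 ± 0.0184 and 1.38 ± 0.0714 on the log2 scale, each pair at p = 0.1 in the exact test.

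Rheb, the small GTPase that activates mTORC1 directly when loaded with GTP, lies on the minus strand of chromosome 5 from 24802823 to 24842624. Its levels were 117, 114 and 115 CPM in control, 180.2, 185 and 178 CPM in HD-het, and 117, 113 and 124 CPM in HD-homo libraries. All HD-het libraries were well above the rest, and control and HD-homo libraries overlapped. Rheb was 1.57-fold higher in HD-het than in control cells, or 0.65 ± 0.0524 on the log2 scale (SE, adjusted p = 1.24e-06, edgeR quasi-likelihood, Benjamini-Hochberg), the largest fitted change of any member there, beside -0.63 for Rictor. HD-homo cells had 0.651 times the HD-het level, at -0.62 ± 0.0523 (adjusted p = 1e-06). In HD-homo against control cells the value was 0.03 (95% interval -0.09 to 0.14, adjusted p = 0.671). Rheb, and Rictor in the other direction, thus differed from control cells in the line with 1 expanded allele, differed again between the HD lines, and did not pass the test against control cells in the line with 2 expanded alleles.

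The genes of the pathway lists whose levels over the 9 libraries were most like those of Rheb were Nos1ap (Pearson r = 0.964), Rragc (r = 0.949) and Rasgrp1 (r = 0.932), on the scale of log2(CPM + 0.5). These points are libraries of 3 lines and share the difference between lines, so the values are a description. Rasgrp1 had few reads, between 6 and 8 in control, 19 and 45 in HD-het and 5 and 6 in HD-homo libraries. Rragc encodes a RAG GTPase, and its levels were 116 ± 7.39 CPM (SD, n = 3) in control, 147 ± 4.07 in HD-het and 111 ± 1.44 in HD-homo cells. The windows of 250 bases before the start sites of Rheb and Rragc, from RefSeq on GRCm38.p6, both hold the letters CACGTG, the E-box core that factors such as MYC and TFEB are known to bind. The stretches of 30 bases around it are shown because Rragc is the pathway gene most like Rheb whose window also holds the motif. The pair was thus picked by its levels, and a link between motif and level was not tested. In these stretches, capitals mark the motif, which reads the same on both strands. That of Rheb is at chr5:24842440-24842469 on the minus strand, where the motif begins 96 bases before the RefSeq start and within the 5′ UTR of the longer GENCODE transcript Rheb-201. That of Rragc is at chr4:123917309-123917338 on the plus strand, with the motif beginning 112 bases before the start.
Rheb: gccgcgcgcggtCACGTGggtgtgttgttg
Rragc: ggtgattccgggCACGTGatagtaccactt
Among the members, 9 had a promoter in the table and 1, Rheb, held the motif. It was present in 1978 of the 32851 promoters of the table (6.02%) and in 10 of 100 promoters of the pathway lists. Both entries of Nos1ap and the entry of Rasgrp1 lacked these letters. A match is a description of letters and not of binding.

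Tsc1 encodes hamartin, which stabilizes the tuberous sclerosis complex, and lies on chromosome 2 from 28641228 to 28691167. Its levels were 48.8, 46.7 and 47.8 CPM in control libraries, 56.6, 55.9 and 53.3 in HD-het libraries and 55.3, 60.9 and 63.3 in HD-homo libraries. Every HD library lay above every control library, and the HD lines overlapped. Tsc1 rose by 0.33 on the log2 scale in HD-homo cells (SE 0.0634, adjusted p = 0.00108, edgeR quasi-likelihood, Benjamini-Hochberg), to 1.25 times the control level. In HD-het cells it rose by 0.21 (SE 0.0635, adjusted p = 0.0123), to 1.16 times, and this call was lost without control replicate 2 (0.19, adjusted p = 0.0516). The HD lines were separated by 0.11 (95% interval -0.03 to 0.25, adjusted p = 0.127), a difference that passed without HD-homo replicate 1 (0.17, adjusted p = 0.0315).

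Tsc2 encodes tuberin, the subunit with GTPase-activating function toward RHEB, and lies on the minus strand of chromosome 17 from 24595816 to 24632630. Control libraries held 79.0, 76.7 and 81.7 CPM, HD-het libraries 66.5, 64.9 and 67.9, and HD-homo libraries 65.0, 63.4 and 65.3. All HD libraries were below all control libraries, the opposite side from Tsc1, and the HD lines overlapped. Tsc2 fell by 0.29 in HD-homo cells (SE 0.0512, adjusted p = 0.000489, edgeR quasi-likelihood, Benjamini-Hochberg) and by 0.25 in HD-het cells (SE 0.0512, adjusted p = 0.00114), to 0.816 and 0.839 times the control level. Between the HD lines the log2 fold change was -0.04 (95% interval -0.15 to 0.07, adjusted p = 0.489). The end of Tsc2 overlaps that of Pkd1 on the other strand over 693 bases. Pkd1 was at 233 CPM in control, 499 in HD-het and 204.0 in HD-homo cells, and whether the counting used strand is not given in the sources used here, so reads in the shared bases may be uncertain. Of the 50-base words of Tsc2 transcripts, 1.72% also occur in another gene, chiefly the neighbouring listing Gm38110, against at most 0.258% for any other member.

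The ratio of Tsc1 to Tsc2 was higher in both HD lines than in control cells. On the log2 scale it was -0.69, -0.72 and -0.77 in control libraries, -0.23, -0.21 and -0.35 in HD-het libraries and -0.23, -0.06 and -0.04 in HD-homo libraries. No HD library reached down to the control range. The difference from control cells was 0.62 in HD-homo and 0.46 in HD-het cells (two-sided exact permutation test, p = 0.1 for each), and that between the HD lines was 0.15 (p = 0.3 in the same exact test). The log2 ratio of Rheb to Tsc2, the GTPase to its brake, was 0.55 ± 0.0435 (SD, n = 3) in control, 1.45 ± 0.0617 in HD-het and 0.87 ± 0.0507 in HD-homo cells, with no overlap between any lines and p = 0.1 for each pair in the exact test.

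**Figure D2:**
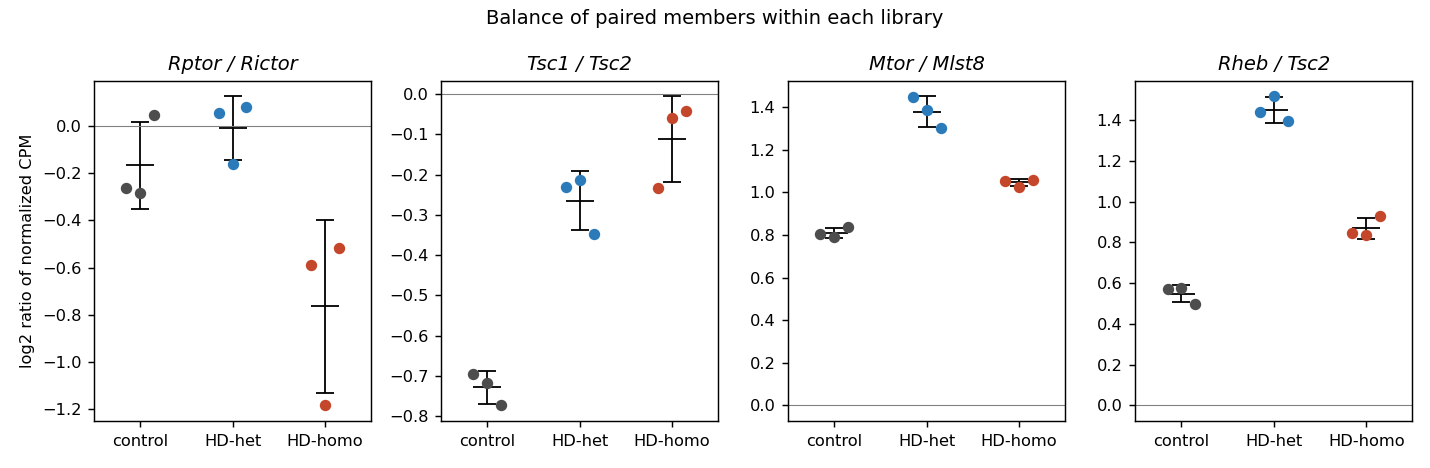
Log2 ratio of normalized CPM between paired members within each library (vertical axis), by line. Points are libraries, the horizontal bar is the mean and the whiskers are the SD (n = 3). Control libraries are lowest in the ratios of Tsc1 to Tsc2, Mtor to Mlst8 and Rheb to Tsc2, and HD-homo libraries are lowest in the ratio of Rptor to Rictor, with replicate 2 at -1.19.

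Depdc5, the GATOR1 subunit that acts on the RAG GTPases when amino acids are scarce, lies on chromosome 5 from 32863701 to 32994236. Its levels were 25.0, 23.6 and 25.4 CPM in control libraries, 24.7, 23.9 and 22.4 in HD-het libraries and 24.2, 30.4 and 26.3 in HD-homo libraries. All 3 lines overlapped, and HD-homo replicate 2 was 20.4% above the mean of the other HD-homo libraries. The log2 fold change was -0.06 in HD-het (95% interval -0.25 to 0.13) and 0.13 in HD-homo against control cells (-0.06 to 0.32), with adjusted p values of 0.569 and 0.226 (edgeR quasi-likelihood, Benjamini-Hochberg). Without HD-homo replicate 2 the latter was 0.03. Between the HD lines the value was 0.19 (-0.003 to 0.38, adjusted p = 0.0721 by the same test). It was 0.10 without HD-homo replicate 2 (adjusted p = 0.289), and it passed without HD-homo replicate 1 (0.26, adjusted p = 0.0192).

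Rasd1, which encodes the small GTPase known as Dexras1, lies on the minus strand of chromosome 11 from 59963181 to 59964944 and was close to the limit of detection. The reads counted were 19, 17 and 19 in control libraries, 19, 13 and 15 in HD-het libraries and 15, 13 and 16 in HD-homo libraries. In CPM these were between 0.506 and 0.642 in control, between 0.396 and 0.536 in HD-het and between 0.308 and 0.477 in HD-homo libraries, so that HD-homo and control libraries did not overlap. The log2 fold change was -0.50 in HD-homo (95% interval -1.07 to 0.08, adjusted p = 0.124) and -0.32 in HD-het against control cells (-0.89 to 0.25, adjusted p = 0.32) (edgeR quasi-likelihood, Benjamini-Hochberg). Between the HD lines it was -0.17 (-0.76 to 0.41). Neither a fall nor the absence of one could be shown at this depth. The pathway genes most like Rasd1 over the 9 libraries were Wdr24 (r = 0.769), Akt1s1 (r = 0.705) and Kptn (r = 0.693). With 13 to 19 reads on Rasd1 in each library, counting error enters these values, which are a description only.

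Rasd2, the gene of Rhes, lies on chromosome 8 from 75213944 to 75224113. The reads counted on it were 1, 1 and 5 in control libraries, 0, 0 and 0 in HD-het libraries and 3, 0 and 3 in HD-homo libraries. With at most 3 reads in 8 of the 9 libraries the gene did not pass the filter, and no fold change is given. The mRNA of Rhes was therefore at or near the floor in all 3 lines.

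**Figure D3:**
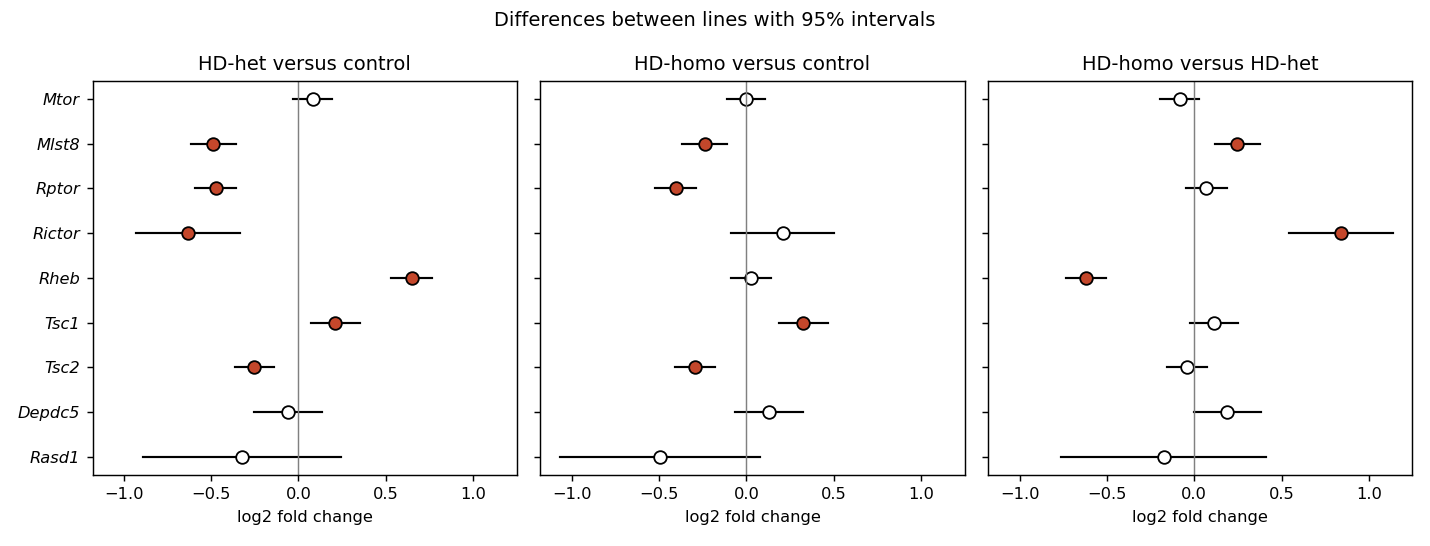
Log2 fold change (horizontal axis) of the 9 tested members in the 3 comparisons, with 95% intervals as lines. Filled points passed an adjusted p of 0.05 in edgeR's quasi-likelihood test and open points did not. Rheb at 0.65 stands to the right and Rictor, Mlst8 and Rptor to the left in HD-het against control cells, and the intervals of Rasd1 are the widest.

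Around the members, 87 other genes of the pathway were listed in 7 groups, and all of them were tested. Of these, 54 differed between HD-homo and control cells (26 higher, 28 lower), 54 between HD-het and control cells (25 higher, 29 lower) and 61 between the HD lines (32 higher, 29 lower in HD-homo). These are 62.1%, 62.1% and 70.1% of the list, beside the 58.6%, 65.1% and 71.6% of all genes. The median log2 fold change of the list was -0.01, -0.04 and 0.06.

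Among the partners of the mTOR complexes, 6 of 8 differed in HD-homo (3 higher, 3 lower) and 5 in HD-het cells (2 higher, 3 lower). These are 75% and 62.5% of the list, beside 58.6% and 65.1% of all genes. Deptor, an inhibitor that binds mTOR, was 16.5 ± 0.494 CPM (SD, n = 3) in control and 4.56 ± 0.592 CPM in HD-het cells, -1.85 on the log2 scale (adjusted p = 2.54e-06, edgeR quasi-likelihood, Benjamini-Hochberg). In HD-homo cells Deptor was at 12.5 ± 3.00 CPM, a call that 10 of 17 other settings removed. Telo2, a chaperone of mTOR and related kinases, fell by 0.47 in HD-homo and by 0.67 in HD-het cells, and its partner Tti1 rose by 0.50 in HD-het cells. Prr5l, an mTORC2 partner, rose by 0.84 in HD-homo cells.

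Among the 4 genes around the tuberous sclerosis complex and the small GTPases, all passed the test in HD-het cells (3 higher, 1 lower). In HD-homo cells 2 passed, both higher. These are 100% and 50% of the list, beside 65.1% and 58.6% of all genes. Tbc1d7, the third subunit of the tuberous sclerosis complex, was 8.22 ± 0.706 CPM (SD, n = 3) in control, 14.2 ± 0.895 in HD-het and 15.3 ± 0.902 in HD-homo cells. It rose like Tsc1, by 0.90 in HD-homo and 0.79 in HD-het cells on the log2 scale, where Tsc2 fell. Rhebl1, the paralog of Rheb, went the other way from Rheb in HD-het cells, where it fell by 1.07 (adjusted p = 5.2e-06, edgeR quasi-likelihood, Benjamini-Hochberg) from 8.44 to 4.01 CPM. Nos1ap, an adaptor that ties Dexras1 to nitric oxide synthase, rose by 1.68 in HD-het cells from a low 0.680 CPM to 2.19 CPM. Its HD-homo value of 0.52 passed the test, but 8 of 17 other settings removed that call.

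Of the 17 genes of growth factor input, 13 differed in HD-homo cells (4 higher, 9 lower, median -0.19). In HD-het cells 9 differed (3 higher, 6 lower, median -0.14). These are 76.5% and 52.9% of the list, beside 58.6% and 65.1% of all genes. The insulin receptor gene Insr was 0.394 times the control level in HD-homo cells, and Grb10, which encodes an adaptor that restrains insulin signalling, was 2.74-fold higher there, at 899.8 ± 48.2 CPM (SD, n = 3). In HD-het cells Rps6ka1, the gene of a kinase of the RSK family, was 0.339 times the control level.

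On the amino acid side, 10 of 16 genes differed in HD-homo (8 higher, 2 lower) and 8 in HD-het cells (3 higher, 5 lower). These are 62.5% and 50% of the list, beside 58.6% and 65.1% of all genes. Of the GATOR1 partners of Depdc5, Nprl2 was 0.27 higher in HD-homo cells on the log2 scale (adjusted p = 0.0212, edgeR quasi-likelihood, Benjamini-Hochberg), and Nprl3 was at 0.00 (adjusted p = 0.974). Sesn3, a gene of the sestrin family, rose in both HD lines, to 2.23-fold in HD-homo and 2.01-fold in HD-het cells. Its relative Sesn1 fell by 1.00 on the log2 scale in HD-het cells, from 20.5 to 10.2 CPM. Kptn, a KICSTOR subunit, fell by 0.67 in HD-homo cells. Castor1, the arginine sensor, had 8, 13 and 5 reads in control libraries, 2, 0 and 2 in HD-het libraries and 109, 132 and 112 in HD-homo libraries. In HD-homo cells it was 12.2-fold above control cells, and at least 36.9-fold higher than in HD-het cells when the floor of 3 counts was used for HD-het. The table lists this gene a second time under its older symbol Gatsl3 with similar counts, so its level is uncertain.

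Of the 13 RAG GTPase, Ragulator and lysosomal genes, 8 differed in HD-het cells (6 higher, 2 lower; median 0.22), or 61.5% beside 65.1% of all genes. In HD-homo cells 4 differed, all lower (median -0.03), or 30.8% beside 58.6%. Between the HD lines 10 differed, 9 of them lower in HD-homo cells, or 76.9% beside 71.6%. Rragd, one of the RAG GTPases, was 8.00 ± 0.230 CPM (SD, n = 3) in control, 31.5 ± 5.66 in HD-het and 2.52 ± 0.225 in HD-homo cells, with no overlap between the lines. Against control cells its log2 fold change was 1.98 in HD-het (adjusted p = 2.47e-07, edgeR quasi-likelihood, Benjamini-Hochberg) and -1.66 in HD-homo cells (adjusted p = 2.57e-06). Rragb fell by 1.56 in HD-homo cells and by 0.30 in HD-het cells, the latter a call that 5 of 17 other settings removed.

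Of the 13 genes of energy and stress inputs, 12 differed in HD-homo cells (5 higher, 7 lower), or 92.3% beside 58.6% of all genes, and 9 in HD-het cells (5 higher, 4 lower), or 69.2% beside 65.1%. Ddit4, which encodes the stress-induced mTORC1 inhibitor REDD1, was 57.8 CPM in control, 31.2 in HD-het and 30.1 in HD-homo cells, a fall of 0.89 and of 0.94 on the log2 scale. Its relative Ddit4l had no read in any control library, between 21 and 33 reads in HD-het libraries and 48, 137 and 133 reads in HD-homo libraries, at least 8.71-fold and at least 30.6-fold higher against the floor. The AMPK subunit genes Prkaa2 and Prkag2 were 0.343 and 0.572 times the control level in HD-homo cells, and Prkag2 was 1.61-fold higher in HD-het cells. Another AMPK gene, Prkaa1, was the gene most like Rictor over the 9 libraries (r = 0.948), followed by Rps6kb2 (r = 0.915) and Prkag1 (r = 0.887).

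Among the 16 genes of mTORC1 targets, 11 differed in HD-het cells (3 higher, 8 lower, median -0.19). In HD-homo cells 7 differed (4 higher, 3 lower, median -0.02). These are 68.8% and 43.8% of the list, beside 65.1% and 58.6% of all genes. Eif4b, which encodes an initiation factor, fell by 1.00 on the log2 scale in HD-het cells, to 518 CPM against 1035 CPM in control cells (adjusted p = 1.19e-07, edgeR quasi-likelihood, Benjamini-Hochberg), and in HD-homo cells its value was -0.02 (adjusted p = 0.794). Eif4ebp1, the gene of the translational repressor 4E-BP1, fell by 0.34 in HD-homo cells and was at 0.07 in HD-het cells (adjusted p = 0.245). Atg13, which encodes a partner of the autophagy kinase ULK1, was 1.25-fold higher in HD-het and 1.29-fold higher in HD-homo cells. Lpin1 was 2.02-fold higher in HD-homo and 0.590 times the control level in HD-het cells, and 4 of 17 other settings removed the HD-het call.

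**Figure D4:**
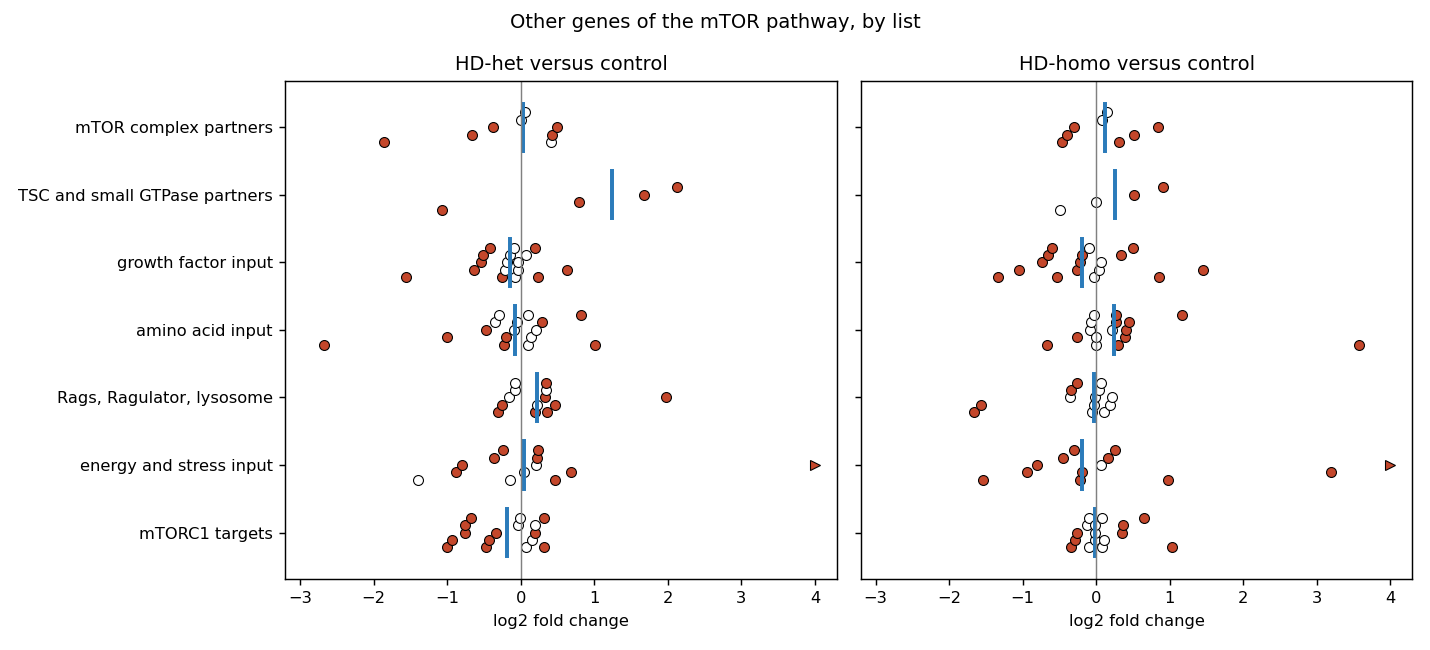
Log2 fold change against control cells (horizontal axis) of 87 pathway genes in 7 lists, for HD-het (left) and HD-homo cells (right). Each point is a gene, filled where it passed an adjusted p of 0.05, the blue bar is the median of the list, and a triangle at the right edge is Ddit4l, which lies beyond the axis and had no read in control cells. The Rag and Ragulator list lies to the right in HD-het cells (median 0.22), and the mTORC1 targets lie to the left there (median -0.19).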

How the data were processed

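Per the labels, total RNA was poly(A)-selected into directional libraries. The submitters' processing notes name cutadapt, Bowtie 1.1.2, RSEM 1.3.0, DESeq2 and the builds GRCm38.p5 and mm10, without roles. The authors deposited 1 table of whole-number counts by gene symbol, with no normalization. If these are RSEM estimates, they were rounded before deposit. Totals differ between libraries, and 26 symbols are listed as dates.

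Counts were filtered with filterByExpr (minimum count 10), scaled by TMM (factors 0.984 to 1.03) and fitted over all 9 libraries with the quasi-likelihood test of edgeR 4.0.16 in R 4.3.3, two-sided, with Benjamini-Hochberg adjustment within each of the 3 comparisons and a threshold of 0.05. CPM used the scaled totals of the tested genes. Fold changes against lines with at most 3 counts in every library are bounds at that floor, per library. Ratios used exact permutation tests over libraries.

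The members, lists and tests were chosen with earlier results of these data known. Named pathway genes are the largest called increase and decrease of each list in each HD line, if the higher of both lines reached 1 CPM; Nprl2, Nprl3 and the genes most like Rheb, Rictor and Rasd1, the members with the largest change in 1 comparison each, were added to these, Nprl2 and Nprl3 after their values were seen. Of 88 pathway symbols 87 were matched. The result of 1 gene that this rule names is not reported here. Gene models are from GENCODE release vM21 on GRCm38, promoters from RefSeq on GRCm38.p6. The pipeline was tested on simulated data. Alternatives were DESeq2's size factors, library totals only, the Wald test of DESeq2 1.42.0, other filters, a prior count of 2, a block on replicate number, only the lines compared and leaving out each library. The planned ratio of Rasd1 to Rasd2 was not computed, because Rasd2 had at most 3 reads in 8 of 9 libraries.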

Additional observations from a re-analysis of the deposited data

Results flagged for a closer look

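Leaving out Castor1, 5 of the genes named from the pathway lists changed in opposite directions in the HD lines against the same control libraries. The genes were picked for these opposite changes, so a difference between HD-homo and HD-het cells follows from the choice and is no further support. On the log2 scale this difference was -3.64 for Rragd and -1.49 for Prkag2, which were higher in HD-het and lower in HD-homo cells than in control cells. It was 2.06 for Rps6ka1, 1.96 for Grb10 and 1.78 for Lpin1, which were lower in HD-het and higher in HD-homo cells. Castor1 was likewise higher in HD-homo and lower in HD-het cells than in control cells. It had at most 2 reads in any HD-het library. None of the 10 members was called in opposite directions. Against control cells 58.6% of all tested genes differed in HD-homo and 65.1% in HD-het cells. How many of those went opposite ways is not given here, and the named genes were picked for large changes. Neither count can therefore be read as a trait of the pathway.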

How the results depend on the processing

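Over the alternatives, 450 of the member values kept their direction and side of the threshold, while 6 changed sign, 2 gained a call and 1 lost it. Of the values of the other named genes 1260 kept both, 12 changed sign, 13 gained a call and 34 lost it. Members called between the HD lines numbered 3 to 5 without each library in turn, 5 being without HD-homo replicate 1, where Tsc1 (0.17, adjusted p = 0.0315) and Depdc5 (0.26, adjusted p = 0.0192) were gained. Values near 0 changed sign. In HD-homo against control cells Mtor was 0.013 with library totals only, 0.006 with at least 10 counts in every library and -0.018 to 0.021 without each library in turn, Rhebl1 was 0.0062 with library totals only and -0.049 to 0.043 without each library, and Sesn1 was 0.0063 with library totals only and -0.056 to 0.066 without each library. In the same comparison the values without each library ran from -0.012 to 0.058 for Rheb, from -0.018 to 0.16 for Tti1 and from -0.039 to 0.012 for Eif4b. Prkaa2 in HD-het against control cells ran from -0.079 to 0.17, and between the HD lines Rasd1 ran from -0.30 to 0.023 and Ddit4 from -0.17 to 0.15. No scaling moved the median of all genes by 0.1 on the log2 scale.

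The replicate numbers were not taken as a pairing. The deviations of same-numbered libraries correlated at between 0.0226 and 0.245, below 0.1 for 5 of the 9 pairs. Their mean was 0.166 for HD-het with control and 0.129 for HD-homo with HD-het cells, both above 0.1. It was 0.0335 for HD-homo with control cells. In addition 8 of 9 libraries correlated best with their own number, a hint of pairing from the data. A replicate block gave 4, 6 and 3 members called in HD-homo against control, HD-het against control and HD-homo against HD-het cells, as without it, and 8372, 9160 and 9938 of all genes against 7910, 8797 and 9666. With the block the same-numbered differences of the ratios had an exact p of at least 0.25, the smallest that 3 pairs allow. Depth limited Rasd1 and Rasd2, and 1 line per genotype limits every comparison.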
